A study of Homo sapiens with 12 samples.

Results

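The genes described here are 10 members of the canonical Wnt pathway, of the 60617 genes in the deposited tables, chosen by name: the β-catenin gene CTNNB1 and 4 genes of its destruction complex (APC, AXIN1, AXIN2 and GSK3B), the R-spondin receptor LGR5, the ubiquitin ligases RNF43 and ZNRF3, and the DNA-binding factors LEF1 and TCF7. The 10 genes were chosen with earlier results of these data known, so their counts beside the shares over all genes are not independent of the data. All 10 were among the 15692 genes that passed the filter on low counts and were tested. RNA-seq was available for 12 libraries of human HCT 116 colon cancer cells, all with the p53-/- genotype. The 4 groups of 3 libraries were HCT 116p53-/- cells with vehicle, the same cells with 5 nM Act D (actinomycin D, which at a low dose blocks rRNA transcription) for 24 h, and uL3ΔHCT 116p53-/- cells with vehicle or with the same dose and time of Act D. The labels give the latter cells the genotype RPL3 KO (RPL3 encodes the ribosomal protein uL3), while the study's methods describe 1 sub-line that was stably silenced for uL3, so that every uL3Δ library came from 1 derived line. The labels call the 3 libraries of a group biological replicates, and nothing says which cultures they came from.

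Without a Wnt ligand, β-catenin is bound by the scaffolds APC and Axin, phosphorylated by casein kinase 1 and GSK3 and degraded. Ligand binding to Frizzled and LRP5/6 receptors stops this, and β-catenin then activates transcription together with factors of the TCF/LEF family. AXIN2, RNF43, ZNRF3 and LGR5 are known targets that act back on the pathway: AXIN2 rebuilds the destruction complex, RNF43 and ZNRF3 remove Frizzled from the cell surface, and LGR5 binds R-spondins, which take these ligases away. In the intestine the pathway maintains crypt stem cells, for which LGR5 is a marker. HCT 116 cells are known for a stabilising change in 1 allele of CTNNB1 and an intact APC gene, and RNA counts do not show how stable the protein is.

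Total expected counts were between 10087925 and 21138886 per library, and values are CPM (counts per 1000000 of the TMM-scaled library size) unless stated otherwise. On CPM, RPL3 was not lower in the libraries labelled uL3Δ. With vehicle it was at 1121 to 1151 CPM in HCT 116p53-/- cells and at 1188 to 1337 CPM in uL3Δ libraries (log2 fold change 0.13 ± 0.08 SE, adjusted p = 0.155). Its log2 fold change with Act D was 0.12 ± 0.08 (adjusted p = 0.187). Scaled by library size alone the RPL3 differences were -0.11 and -0.13, and neither passed the test. On the deposited TPM, which divide counts by transcript length, RPL3 was lower under the uL3Δ label without overlap. With vehicle it was at 720 to 826 TPM in HCT 116p53-/- cells and at 545 to 641 TPM in uL3Δ libraries. With Act D it was at 692 to 763 and 523 to 601 TPM, and no test was run on TPM. All 6 libraries with the uL3Δ label are therefore called by their label. Comparisons within HCT 116p53-/- cells do not contrast them, but the filter, scaling and spread estimate of the fit used all 12 libraries. The libraries with the uL3Δ label also stood apart in lineage markers. Between the lines with vehicle, 35.1% of all genes tested were called higher in uL3Δ libraries and 36.2% lower. Of 14 colon epithelial markers, 11 were tested and 10 were lower and 1 was higher in uL3Δ libraries with vehicle. CDH1 (E-cadherin) measured 66.8 ± 2.34 CPM (mean ± SD, n = 3) in HCT 116p53-/- cells against 0.445 ± 0.271, CDX2 (intestinal transcription factor) at 14.8 ± 0.581 against 0.177 ± 0.0862, and EPCAM at 153 ± 12.7 against 35.5 ± 2.3, while the keratin KRT18 was at 605 ± 25.3 against 840 ± 51.4. The summed level of the 14 markers was 2644 to 2863 CPM against 1646 to 1846 CPM, with CDX1 at 0 in all HCT 116p53-/- libraries, and CDX1 and KRT20 at 0 in all uL3Δ libraries with Act D. Of 12 mesenchymal markers, 9 were tested, 7 were higher and 1 was lower, and their sum was 58.5 to 70.9 CPM against 2592 to 2672 CPM, with VIM (vimentin) at 19.7 to 25.9 CPM against 2211 to 2271 CPM. With Act D the epithelial sums were 2857 to 2985 against 1785 to 2047 CPM and the mesenchymal sums 67.4 to 104 against 2609 to 2934 CPM. These markers moved with every difference between the lines given here, and their part in those differences was not tested. In RNA of whole cultures, fewer cells of a type and less RNA per cell cannot be told apart.

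TCF/LEF factors bind DNA at the letters CTTTGAT. RefSeq promoter windows on GRCh38.p14 (250 bases before to 50 bases after a transcript's start) were available for 7 of the 10 genes, in 10 windows. AXIN2, LGR5 and ZNRF3 had no window, so their promoters were not searched. None of these 10 windows held CTTTGAT (or ATCAAAG, the same letters on the other strand), which 2.62% of 35116 windows hold. The shorter CTTTGA or TCAAAG, which lies within it, was likewise in none of the 10 and in 12.9% of all windows. The 5-letter core CTTTG or CAAAG was in 4 of the 10 (LEF1, 1 of the TCF7 windows and both RNF43 windows) and in 47.5% of all. Such a match describes letters only, not a bound site. The exon-free stretches of both RNF43 windows and of the TCF7 window with the core are printed 5′ to 3′ on the strand of the gene with the core in capitals, because RNF43 differed widely between the lines and TCF7 did not pass the test there.
RNF43, chr17:58417596-58417784 (minus strand): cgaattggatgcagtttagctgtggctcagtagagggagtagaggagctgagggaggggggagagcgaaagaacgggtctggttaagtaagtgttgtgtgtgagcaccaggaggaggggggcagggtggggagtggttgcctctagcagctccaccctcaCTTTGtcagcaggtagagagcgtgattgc
RNF43, chr17:58402722-58402971 (minus strand): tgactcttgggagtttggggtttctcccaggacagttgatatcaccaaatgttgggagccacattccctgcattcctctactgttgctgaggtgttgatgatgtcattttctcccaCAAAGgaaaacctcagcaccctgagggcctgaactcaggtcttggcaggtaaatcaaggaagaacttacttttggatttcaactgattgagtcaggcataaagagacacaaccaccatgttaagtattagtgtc
TCF7, chr5:134123368-134123617 (plus strand): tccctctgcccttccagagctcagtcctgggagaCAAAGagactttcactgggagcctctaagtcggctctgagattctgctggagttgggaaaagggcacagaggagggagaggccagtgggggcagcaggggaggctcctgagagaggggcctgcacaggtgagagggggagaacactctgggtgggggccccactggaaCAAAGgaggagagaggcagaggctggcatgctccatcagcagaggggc
The core occurs once in each RNF43 stretch and at 2 places in the TCF7 stretch, whose GC content was 62.0% against 57.1% and 45.2% for RNF43.

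Between the lines with vehicle, 8 of the 10 genes passed the test (edgeR's quasi-likelihood test, adjusted p under 0.05), against a background of 71.3% of all 15692 genes tested. AXIN1, CTNNB1, LGR5 and LEF1 were higher in uL3Δ libraries (background 35.1%) and AXIN2, APC, RNF43 and ZNRF3 were lower (background 36.2%), while GSK3B and TCF7 did not pass. The same 8 genes had groups that did not overlap, as 72.5% of all genes had. With library size alone as the scaling, 3 genes were higher and 6 lower, where the median log2 fold change over all genes shifted by -0.24: CTNNB1 no longer passed and GSK3B and TCF7 passed as lower. With Act D, 7 genes differed between the lines (background 70.4%), 3 higher (background 35.1%) and 4 lower (background 35.3%), and the groups of 7 genes did not overlap (background 74.1%). The median log2 fold change of the 10 genes was -0.13 with vehicle and -0.08 with Act D, against -0.02 for all genes in both.

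**Figure D1:**
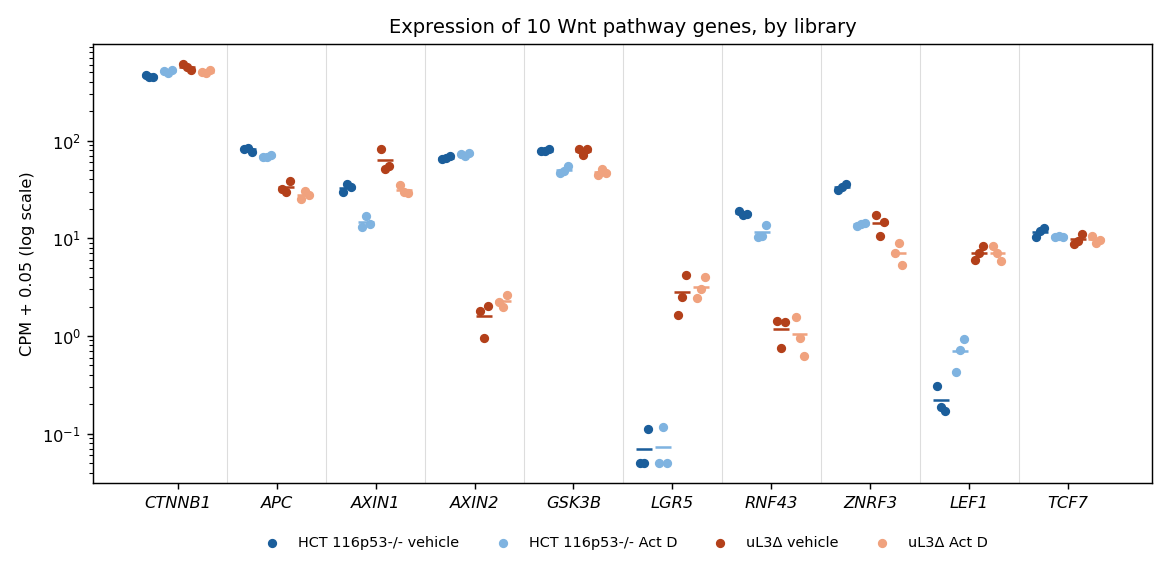
Expression of the 10 genes in each of the 12 libraries, as CPM + 0.05 on a log axis; points are libraries (3 per group), bars are group means. AXIN2 and RNF43 sit far lower in the libraries labelled uL3Δ, LGR5 and LEF1 far higher, and GSK3B and TCF7 lie at like levels in both lines with vehicle.

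Of the destruction complex, the substrate was the most abundant member. CTNNB1 (ENSG00000168036, chr3:41194741-41260096, plus strand of hg38) encodes β-catenin. It was at 468, 445 and 450 CPM in HCT 116p53-/- cells with vehicle and at 609, 572 and 531 CPM in uL3Δ libraries with vehicle. The uL3Δ libraries were all higher, by a small margin, with a log2 fold change of 0.33 ± 0.07 (adjusted p = 0.000761). On the deposited TPM (a unit that divides counts by transcript length) the difference had the other sign, -0.16, with means of 112 ± 9.59 and 101 ± 16.1 TPM, and scaled by library size alone it was 0.09 (adjusted p = 0.390). With Act D the libraries held 520, 496 and 524 CPM in HCT 116p53-/- cells and 501, 495 and 525 CPM under the uL3Δ label. These groups overlapped (log2 fold change -0.02 ± 0.07, adjusted p = 0.843). Scaled by library size alone, CTNNB1 with Act D was lower in uL3Δ libraries (log2 -0.26, adjusted p = 0.0156). On TPM the groups with Act D did not overlap, at 113 to 130 TPM in HCT 116p53-/- cells and 83.6 to 86.5 TPM in uL3Δ libraries.

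AXIN1 and AXIN2 encode related scaffolds of the complex, and they differed between the lines in opposite directions. AXIN1 (ENSG00000103126, chr16:287440-352723, minus strand) was at 29.7, 35.5 and 33.4 CPM in HCT 116p53-/- cells with vehicle and at 81.9, 51.5 and 54.3 CPM in uL3Δ libraries. Every uL3Δ library was higher, the first by the widest margin, and the fitted difference was 1.90-fold (log2 0.92 ± 0.15, adjusted p = 2.59e-05). AXIN2 (ENSG00000168646, chr17:65528563-65561648, minus strand) was at 64.2, 66.0 and 69.1 CPM in HCT 116p53-/- cells and at 1.77, 0.901 and 1.96 CPM in uL3Δ libraries. The groups were far apart, 44.8-fold lower under the uL3Δ label (log2 -5.48 ± 0.16, adjusted p = 5.1e-15), on counts of 18 to 29 per uL3Δ library. With Act D AXIN2 remained 32.5-fold lower (log2 -5.02 ± 0.16, adjusted p = 2.19e-14) and AXIN1 2.14-fold higher (log2 1.10 ± 0.17, adjusted p = 1.17e-05).

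A share within a library does not depend on how libraries are scaled, but a share of TPM depends on the transcript lengths estimated in that library. Of the summed TPM of AXIN1 and AXIN2, AXIN2 made up 67.5 to 71.3% in HCT 116p53-/- cells with vehicle and 2.00 to 6.15% in uL3Δ libraries with vehicle. With Act D the shares were 79.2 to 86.7% and 5.38 to 18.8%, the latter 5.86 to 8.15% when taken on counts. So AXIN2 was the more abundant Axin RNA in each library of HCT 116p53-/- cells and the less abundant one in each library labelled uL3Δ.

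APC (ENSG00000134982, chr5:112707518-112846239, plus strand) encodes the large scaffold that is lost in most colon cancers. It was at 82.4, 84.4 and 76.6 CPM in HCT 116p53-/- cells with vehicle and at 31.6, 30.0 and 39.0 CPM in uL3Δ libraries. All uL3Δ libraries were lower, 2.42-fold in the fit (log2 -1.28 ± 0.10, adjusted p = 2.76e-09), and with Act D the difference was 2.48-fold (log2 -1.31 ± 0.11, adjusted p = 3.85e-09). GSK3B (ENSG00000082701, chr3:119821321-120094994, minus strand), which encodes the kinase that marks β-catenin for degradation, was at 78.1, 77.6 and 81.5 CPM against 82.7, 71.5 and 81.6 CPM. These groups overlapped, and GSK3B did not pass the test with vehicle (log2 -0.01 ± 0.09, adjusted p = 0.921) or with Act D (log2 -0.07 ± 0.09, adjusted p = 0.525). Scaled by library size alone, GSK3B was lower in both (log2 -0.25 and -0.31, adjusted p = 0.0228 and 0.0077).

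**Figure D2:**
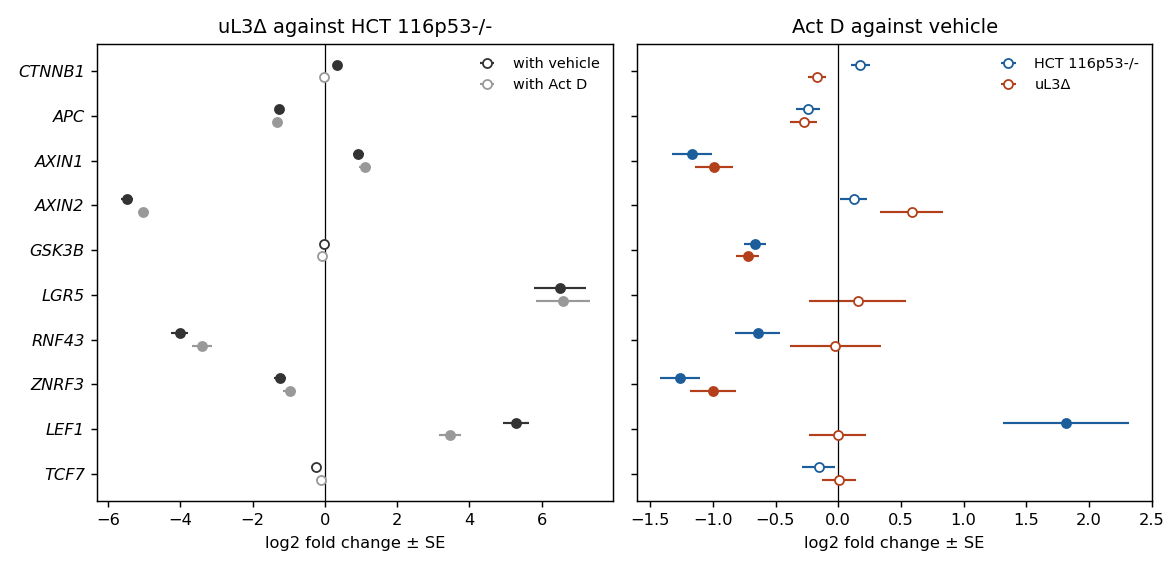
Log2 fold changes ± SE of the 10 genes from the fit over 12 libraries, on the left between the lines for each treatment and on the right for Act D against vehicle in each line; filled points passed adjusted p under 0.05, open points did not. AXIN2 and RNF43 lie furthest to the left between the lines, and AXIN1, GSK3B and ZNRF3 are lower with Act D in both lines. The LGR5 points between the lines rest on 1 count in each HCT 116p53-/- group, and its Act D change in HCT 116p53-/- cells is left out.

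Of the R-spondin arm, the receptor and the ligases differed in opposite directions. LGR5 (ENSG00000139292, chr12:71439798-71586310, plus strand) had 0, 0 and 1 counts in HCT 116p53-/- cells with vehicle and 20, 49 and 62 counts in uL3Δ libraries with vehicle. With Act D it had 0, 1 and 0 counts against 33, 26 and 34. LGR5 was thus near or at 0 in each HCT 116p53-/- library and low in the others, at 1.61 to 4.19 CPM with vehicle. The ratio of the summed counts per depth was 129 with vehicle (95% interval 22.7 to 5132, exact, counting error only) and 129 with Act D (22.6 to 5160), and the test gave adjusted p = 2.94e-07 and 3.38e-07. LGR4, the related receptor that binds the same ligands, was at 8.72 CPM on average in HCT 116p53-/- cells with vehicle and 48.8 CPM in uL3Δ libraries (log2 2.48 ± 0.11, adjusted p = 1.14e-12), so that LGR5 made up 4.53 to 8.72% of the summed TPM of the pair in uL3Δ libraries with vehicle and 0.00 to 0.518% in HCT 116p53-/- cells.

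RNF43 (ENSG00000108375, chr17:58353676-58417595, minus strand) was at 18.8, 17.1 and 17.8 CPM in HCT 116p53-/- cells with vehicle and at 1.37, 0.701 and 1.35 CPM in uL3Δ libraries. All uL3Δ libraries were lower, 16.2-fold in the fit (log2 -4.02 ± 0.24, adjusted p = 4.51e-11), and with Act D the difference was 10.6-fold (log2 -3.40 ± 0.26, adjusted p = 2.4e-09). Its counts were the least certain of the 10, with an RSEM posterior SD of 2.23 to 24.8% of the count, and the annotation has ENSG00000285897 overlapping it on the same strand. ZNRF3 (ENSG00000183579, chr22:28883572-29057488, plus strand) was at 30.9, 33.1 and 35.7 CPM against 17.4, 10.6 and 14.7 CPM. These groups did not overlap either, and ZNRF3 was 2.36-fold lower in uL3Δ libraries with vehicle (log2 -1.24 ± 0.16, adjusted p = 1.4e-06) and 1.97-fold lower with Act D (log2 -0.98 ± 0.18, adjusted p = 0.000129). Of the summed TPM of both ligases, RNF43 made up 44.7 to 55.9% in HCT 116p53-/- cells with vehicle and 8.08 to 18.5% in uL3Δ libraries, and with Act D 51.5 to 64.4% and 12.2 to 19.1%.

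**Figure D3:**
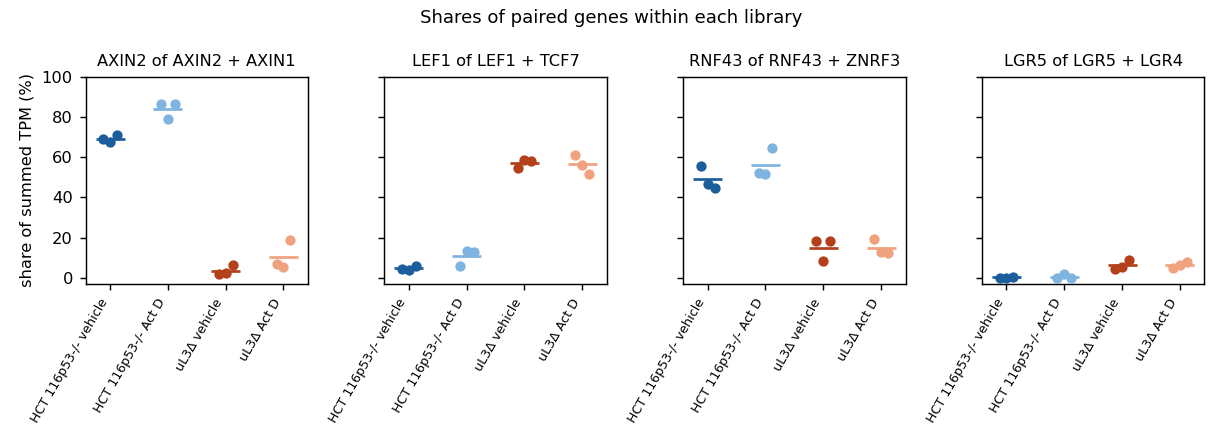
Share of the first gene in the summed TPM of 4 gene pairs, in percent, for each library (points, 3 per group, with the group mean as a bar). AXIN2 and RNF43 hold smaller shares, and LEF1 and LGR5 larger ones, in all libraries labelled uL3Δ than in any HCT 116p53-/- library.

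Of the nuclear factors, LEF1 and TCF7 bind the same DNA letters. LEF1 (ENSG00000138795, chr4:108047545-108168956, minus strand) had 4, 2 and 2 counts in HCT 116p53-/- cells with vehicle, or 0.259, 0.138 and 0.121 CPM, and was at 5.94, 7.01 and 8.30 CPM in uL3Δ libraries with vehicle. The groups were far apart (log2 5.30 ± 0.36, adjusted p = 3.71e-10), although the HCT 116p53-/- side rests on 8 counts in all. With Act D the difference was smaller, at log2 3.47 ± 0.30 (adjusted p = 1.13e-08). TCF7 (ENSG00000081059, chr5:134114681-134151865, plus strand), which encodes TCF1, was at 10.4, 11.8 and 12.6 CPM against 8.68, 9.41 and 10.9 CPM. These groups overlapped and the difference did not pass the test (log2 -0.26 ± 0.13, adjusted p = 0.0891). It passed without replicate 3 of the vehicle-treated uL3Δ libraries (log2 -0.35, adjusted p = 0.0430) and when scaled by library size alone (log2 -0.50, adjusted p = 0.00464). With Act D TCF7 differed by log2 -0.09 ± 0.14 (adjusted p = 0.558). Of the summed TPM of LEF1 and TCF7, LEF1 made up 3.75 to 6.07% in HCT 116p53-/- cells with vehicle and 54.9 to 58.8% in uL3Δ libraries, and with Act D 5.66 to 13.5% and 51.6 to 61.3%. On counts the shares with vehicle were 0.951 to 2.44% and 40.7 to 43.2%, so that LEF1 exceeded TCF7 in uL3Δ libraries on TPM only.

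The order of the 10 levels also differed between the lines when read per length. In HCT 116p53-/- cells with vehicle CTNNB1 led at 112 TPM, followed by GSK3B (17.9) and AXIN2 (17.2), whose ranges overlapped. APC (9.78) and AXIN1 (7.60) came next, then ZNRF3 (3.88), RNF43 (3.78) and TCF7 (3.58), each overlapping the one before it, with LEF1 at 0.177 and LGR5 at 0.00333 TPM. In uL3Δ libraries with vehicle CTNNB1 (101) and GSK3B (15.4) led, and AXIN1 (10.5) overlapped GSK3B. APC (3.34), LEF1 (2.86), TCF7 (2.13) and ZNRF3 (1.33) followed as a run of overlapping neighbours, and AXIN2 (0.363), LGR5 (0.357) and RNF43 (0.257) came last, also overlapping.

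The library deposited per transcript, replicate 2 of HCT 116p53-/- cells with vehicle, shows which transcripts carried these levels, as a description of 1 library. A transcript of 3324 bases held 91.1% of the abundance of AXIN1, one of 6851 bases 86.2% of ZNRF3 and one of 10704 bases 63.5% of APC. Another APC transcript, of 573 bases and annotated as subject to nonsense-mediated decay, held 30.9% of the APC abundance on 22.5 counts. TCF7 is known to give long proteins and short ones that lack the part binding β-catenin. Of its abundance, 67.1% lay in 4 transcripts whose annotated start codon is at position 134115938 of chromosome 5, 15.4% in 1 transcript that starts at 134114907, and 17.5% in 5 transcripts without an annotated start.

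The 5 genes whose log2 CPM followed AXIN2 most closely over the 12 libraries were ZNF264 (Pearson r = 0.997), BLTP2 (0.996), E2F8 (0.996), MARVELD2 (0.996) and DDX60L (0.995). Of the other 9 genes, RNF43 (0.971) and APC (0.957) followed AXIN2 most, ZNRF3 (0.641) and TCF7 (0.619) less, and GSK3B not at all (-0.000836). LGR5 (-0.972), LEF1 (-0.950), AXIN1 (-0.690) and CTNNB1 (-0.635) had negative values. The libraries fall into 2 clusters by line, so that these values mostly restate the difference between the lines.

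Act D for 24 h in HCT 116p53-/- cells changed 5 of the 10 genes (background 18.7%): LEF1 was higher (background 7.59%), and AXIN1, GSK3B, RNF43 and ZNRF3 were lower (background 11.1%). The groups of 8 genes did not overlap, as for 38.2% of all genes. In uL3Δ libraries AXIN1, GSK3B and ZNRF3 passed the test (background 11.9%), none higher (background 3.51%) and 3 lower (background 8.4%), and the groups of 4 genes did not overlap (background 27.6%). The median log2 fold change of the 10 genes was -0.20 in HCT 116p53-/- cells and -0.10 in uL3Δ libraries, against 0.02 and 0.03 for all genes.

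AXIN1 fell with Act D to 13.1, 16.9 and 13.8 CPM in HCT 116p53-/- cells, 2.25-fold below vehicle (log2 -1.17 ± 0.16, adjusted p = 6.93e-05), and to 35.1, 29.9 and 28.8 CPM in uL3Δ libraries, 1.99-fold (log2 -0.99 ± 0.15, adjusted p = 0.000332). Each treated library was below all vehicle-treated ones of its line. GSK3B fell to 46.9, 48.4 and 54.4 CPM in HCT 116p53-/- cells (1.59-fold, log2 -0.67 ± 0.09, adjusted p = 4.79e-05) and to 44.8, 51.4 and 46.7 CPM in uL3Δ libraries (1.65-fold, log2 -0.72 ± 0.09, adjusted p = 5.27e-05). ZNRF3 fell to 13.4, 14.1 and 14.2 CPM in HCT 116p53-/- cells (2.40-fold, log2 -1.26 ± 0.16, adjusted p = 2.4e-05) and to 7.05, 8.79 and 5.22 CPM in uL3Δ libraries (2.00-fold, SE 0.18 on the log2 scale, adjusted p = 0.00145). For GSK3B and ZNRF3, too, the treated libraries of a line lay below its vehicle-treated ones.

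RNF43 was at 10.2, 10.6 and 13.8 CPM with Act D in HCT 116p53-/- cells, below the vehicle-treated libraries (log2 -0.64 ± 0.18, adjusted p = 0.0170), and this call was lost without replicate 1 of the vehicle group or replicate 1 or 2 of the Act D group (adjusted p = 0.0604, 0.0938 and 0.0766). In uL3Δ libraries RNF43 was at 1.53, 0.914 and 0.580 CPM on 5 to 21 counts, with a log2 fold change of -0.02 ± 0.36 (adjusted p = 0.982). AXIN2, in contrast to AXIN1, was at 73.2, 69.2 and 74.6 CPM in HCT 116p53-/- cells with Act D. All 3 were just above the vehicle-treated libraries, but the change did not pass the test (log2 0.12 ± 0.11, adjusted p = 0.487). In uL3Δ libraries AXIN2 was at 2.18, 1.94 and 2.55 CPM (log2 0.58 ± 0.25, adjusted p = 0.146).

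APC had log2 fold changes of -0.24 ± 0.10 in HCT 116p53-/- cells with Act D (67.5, 67.5 and 71.3 CPM, adjusted p = 0.0995) and -0.27 ± 0.11 in uL3Δ libraries (25.2, 30.3 and 27.9 CPM, adjusted p = 0.109), which passed only when scaled by library size alone (adjusted p = 0.0170 and 0.0178) or, in HCT 116p53-/- cells, in a fit of those 2 groups (adjusted p = 0.0331). CTNNB1 had log2 fold changes of 0.18 ± 0.07 (adjusted p = 0.116) and -0.17 ± 0.07 (adjusted p = 0.161), and in neither line did the treated and untreated libraries overlap. TCF7 was at 10.3, 10.6 and 10.2 CPM in treated HCT 116p53-/- cells (log2 -0.16 ± 0.13, adjusted p = 0.462) and at 10.6, 8.79 and 9.62 CPM in treated uL3Δ libraries (log2 0.01 ± 0.14, adjusted p = 0.985). LGR5 in uL3Δ libraries was at 2.40, 2.97 and 3.94 CPM with Act D, overlapping vehicle (log2 0.15 ± 0.39, adjusted p = 0.854).

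LEF1 was the one gene of the 10 that passed the test as higher with Act D in HCT 116p53-/- cells, from 8 counts in all to 27. The treated libraries held 6, 10 and 11 counts, or 0.374, 0.676 and 0.885 CPM, each above the vehicle-treated ones (log2 1.82 ± 0.50, adjusted p = 0.0171). The call was lost without replicate 2 or 3 of the vehicle group (adjusted p = 0.0570 and 0.0695) or replicate 2 or 3 of the Act D group (0.0538 and 0.0674). In uL3Δ libraries LEF1 was at 8.29, 6.97 and 5.80 CPM with Act D (log2 -0.01 ± 0.23, adjusted p = 0.997). LEF1 in HCT 116p53-/- cells stood at 2.44% of its uL3Δ level with vehicle and at 9.19% with Act D. For comparison, 67 genes at 20 CPM or more in uL3Δ libraries and at no more than 1% of that in HCT 116p53-/- cells, both with vehicle, had a median share of 0.413% with vehicle and 1.01% with Act D (highest 3.02%). The 50 genes chosen the same way in the other direction had medians of 0.573% and 0.763% (highest 6.12% with Act D). Both sets were chosen for low shares with vehicle, so a higher share with Act D is partly fixed by the choice. LEF1, at 2.44% and 7.08 CPM in uL3Δ libraries with vehicle, met neither limit, so the highest shares of the sets are no measure for it. Among Wnt genes with few counts in HCT 116p53-/- cells, FZD8 went from 2.61 to 11.3% and APCDD1 from 2.31 to 8.36%. LGR5 did not rise (0.732 and 0.726%). The part of such shifts in the LEF1 change was not tested.

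The Act D responses of the 2 lines were compared directly as an interaction, which none of the 10 genes passed (background 6.53%). Of them, 2 had an unadjusted p under 0.05, as had 3326 of all 15692 genes tested. They were LEF1 (log2 -1.82 ± 0.55, adjusted p = 0.0576) and CTNNB1 (log2 -0.35 ± 0.11, adjusted p = 0.0599). DESeq2 called 1, CTNNB1 (adjusted p = 0.0109). For RNF43, lower with Act D in 1 line only by the test, the difference of the responses was 0.62 ± 0.40 (adjusted p = 0.404), so that the lines were not shown to differ.

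The wider pathway was read from 8 lists of 112 genes: the 10 genes above and 102 others, some on more than 1 list. Of the 112, 86 were tested, the 10 genes among them. The other 26 had means of at most 0.417 CPM in every group. Between the lines with vehicle, 33 of the 86 were higher in uL3Δ libraries and 38 lower, with a median log2 fold change of -0.07, where 35.1% of all genes were higher and 36.2% lower. With Act D 29 were higher and 35 lower, against 35.1% and 35.3% of all genes. Of 22 tested genes known as Wnt targets, 6 were higher and 15 lower, with a median of -0.70 against -0.02 for all genes. These 22 include AXIN2, LGR5, RNF43, ZNRF3, LEF1 and TCF7. Of the 10 inhibitors tested, 2 were higher and 6 lower (median -0.97). DKK1, NKD1, NOTUM and APCDD1 are on both the target and the inhibitor list.

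Among the targets, the growth regulator MYC was at 385 CPM in HCT 116p53-/- cells with vehicle and 15.3 CPM in uL3Δ libraries (log2 -4.66 ± 0.09, adjusted p = 5.56e-17), and NKD1, a feedback inhibitor that binds Dishevelled, at 15.3 and 1.99 CPM (log2 -2.96 ± 0.16, adjusted p = 1.51e-11). The transcription factors PROX1 and TCF4 were higher: PROX1 had 1 count in all HCT 116p53-/- libraries with vehicle and was at 24.6 CPM in uL3Δ libraries, a ratio of 1142 (95% interval 205 to 45144), and TCF4 (the gene of that symbol, not TCF7L2) was at 0.196 and 28.3 CPM (log2 7.13 ± 0.28, adjusted p = 1.49e-13). The targets thus moved both ways, AXIN2, RNF43, ZNRF3, NKD1 and MYC lower and LGR5, LEF1, PROX1 and TCF4 higher. Of the inhibitors, NKD2 was at 11.7 against 0.904 CPM (log2 -3.72 ± 0.31, adjusted p = 5.55e-09). DKK3 had 3 counts against 609, a ratio of 200 (68.1 to 972), and APCDD1 had 1 count against 45, a ratio of 44.3 (7.56 to 1788).

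Of 9 tested Wnt ligands, 4 were higher and 4 lower in uL3Δ libraries with vehicle, where 35.1% and 36.2% of all genes tested were. WNT16 was at 36.3 against 0.629 CPM (log2 -5.91 ± 0.28, adjusted p = 2.68e-12), and WNT3A had 185 counts in HCT 116p53-/- cells and 0 in uL3Δ libraries, at least 62.6-fold lower with 3 counts over the group as the floor. WNT11 (0.227 against 3.28 CPM, log2 3.76 ± 0.51, adjusted p = 2.93e-06) and WNT7B (1.84 against 8.16 CPM, log2 2.13 ± 0.30, adjusted p = 5.48e-06) were higher. Both genes for ligand secretion were higher, PORCN, which adds the lipid (log2 1.44 ± 0.15, adjusted p = 1.19e-07), and WLS, which carries the ligand to the surface (log2 1.36 ± 0.08, adjusted p = 8.22e-11). None of the 4 R-spondin genes was tested.

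Of 18 tested receptors and transducers, 9 were higher (background 35.1%) and 5 lower (background 36.2%), with a median of 0.31. FZD6 was at 57.8 against 17.3 CPM (log2 -1.74 ± 0.11, adjusted p = 9.41e-11) and the co-receptor PTK7 at 133 against 45.4 CPM (log2 -1.55 ± 0.10, adjusted p = 1.09e-10), while the Frizzled genes FZD8 and FZD9 were at 0.0459 and 0.125 CPM against 1.76 and 2.85 CPM. FZD8 had 2 counts against 79, a ratio of 38.9 (10.4 to 327), and FZD9 a log2 fold change of 4.39 ± 0.49 (adjusted p = 2.9e-07). Of 16 genes of the destruction complex with its kinases and ligases, 6 were higher and 7 lower (median -0.00), against the same backgrounds. AMER1, which brings APC to the membrane, was at 16.6 against 4.66 CPM (log2 -1.85 ± 0.19, adjusted p = 7.07e-08), and BTRC, the ligase subunit that recognises phosphorylated β-catenin, at 35.2 against 13.8 CPM (log2 -1.35 ± 0.11, adjusted p = 7.66e-09). APC2 (log2 1.14 ± 0.31, adjusted p = 0.00308) and the phosphatase subunit PPP2CA (log2 0.85 ± 0.08, adjusted p = 3.17e-08) were higher.

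**Figure D4:**
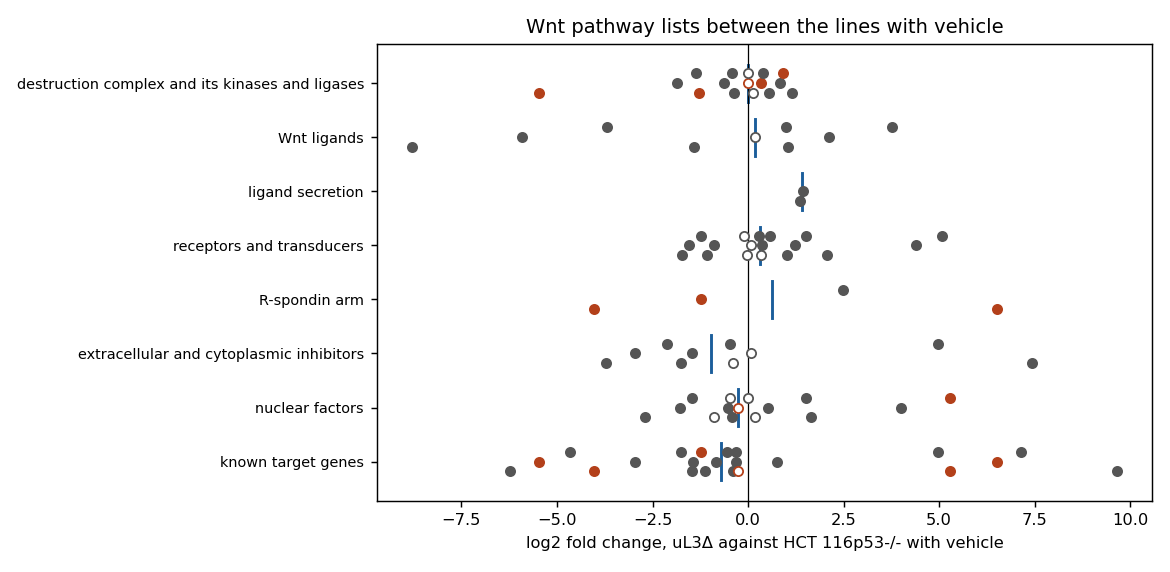
Log2 fold changes between the lines with vehicle for the tested genes of 8 Wnt pathway lists; each point is a gene, orange for the 10 genes described here and grey for others, filled where adjusted p was under 0.05, and the blue bar is the list median. Known targets have 15 genes lower and 6 higher, where 36.2% and 35.1% of all genes tested were. The values at either end, WNT3A and PROX1, rest on groups with 0 and 1 counts and do not measure a fold.

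Of 15 nuclear factors, 5 were higher (background 35.1%) and 5 lower (background 36.2%) in uL3Δ libraries with vehicle, with a median of -0.26. TCF7L2, which made up 78.9 to 79.2% of the summed TPM of TCF7L2 and TCF7 in HCT 116p53-/- cells with vehicle, was at 49.3, 56.3 and 62.1 CPM there and at 15.1, 15.5 and 18.3 CPM in uL3Δ libraries, without overlap (log2 -1.78 ± 0.16, adjusted p = 1.37e-08). The corepressor TLE2 was at 16.4 against 2.58 CPM (log2 -2.70 ± 0.18, adjusted p = 4.04e-10), TLE1 at 650 against 2044 counts (log2 1.63 ± 0.12, adjusted p = 5.83e-10) and TLE4 at 4 against 75 counts (log2 4.01 ± 0.93, adjusted p = 0.000846). With Act D TCF7L2 fell in HCT 116p53-/- cells to 15.1, 15.9 and 22.2 CPM (log2 -1.66, adjusted p = 1.44e-06). In uL3Δ libraries it was at 17.8, 11.6 and 17.9 CPM, overlapping vehicle (log2 -0.04, adjusted p = 0.922). The 4 groups thus fall into one high group and 3 low ones, and the interaction passed (log2 1.62 ± 0.23, adjusted p = 0.000608).

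**Figure D5:**
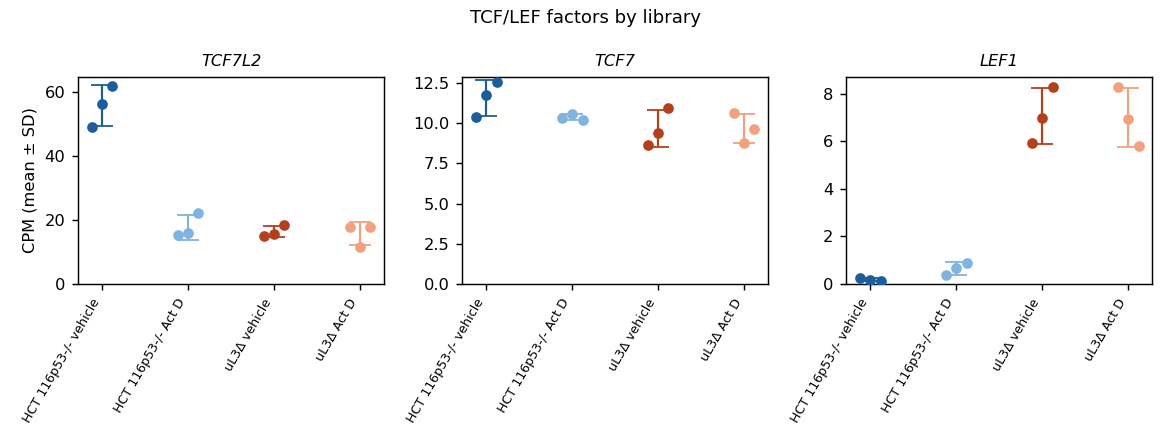
CPM of TCF7L2, TCF7 and LEF1 in each library (points, 3 per group) with the group mean ± SD. TCF7L2 is high only in HCT 116p53-/- cells with vehicle, TCF7 is alike in the 4 groups, and LEF1 is high in both groups labelled uL3Δ.

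With Act D in HCT 116p53-/- cells, 5 of the 86 list genes were higher and 19 lower, where 7.59% and 11.1% of all genes were. These 24 calls dropped to 15 without replicate 1 or without replicate 2 of the Act D group. In uL3Δ libraries 2 were higher and 17 lower, where 3.51% and 8.4% of all genes were. These splits depended on the scaling: upper-quartile factors gave 9 higher and 18 lower in HCT 116p53-/- cells, with 5 higher and 13 lower in uL3Δ libraries, and library size alone gave 3 higher and 22 lower, then 0 higher and 22 lower. Of 16 destruction complex genes, 6 were lower and 2 higher in HCT 116p53-/- cells and 9 were lower and 0 higher in uL3Δ libraries (medians -0.20 and -0.32). Of 22 known targets, 5 were lower and 2 higher in HCT 116p53-/- cells and 4 were lower and 0 higher in uL3Δ libraries, with medians of -0.01 and 0.01.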

How the data were processed

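RNA was sequenced from 12 libraries, 3 in each of 4 groups taken from the sample labels. TruSeq RNA libraries were read from both ends, and no source used here states a strand. After trimming and removal of contaminants such as rRNA, the authors counted reads per Ensembl feature with RSEM 1.2.25 on hg38. They deposited expected counts, which are not normalized, together with TPM, transcript lengths and the posterior SD of each count. Replicate 2 of HCT 116p53-/- cells with vehicle was deposited by transcript (226788 of them, with the percent of its gene that each holds, as deposited by the authors) and summed per gene here; the other 11 are by gene. The study's methods give an FDR threshold of 0.05 and name no test.

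Here expected counts were rounded, filtered with filterByExpr (15692 of 60617 genes kept), scaled with TMM (factors in CPM) and fitted over all 12 libraries with edgeR 4.0.16 (R 4.3.3, quasi-likelihood test, a coefficient per group, Benjamini-Hochberg adjustment over all genes tested). Every adjusted p comes from this test unless DESeq2 is named. SE is that of the log2 fold change. Pair shares use TPM unless counts are named. A group with 1 to 3 counts gets a ratio of summed counts with a 95% exact interval, and one with 0 a bound from 3 counts over the group, both for counting error only. Coordinates are from GENCODE v44 on hg38, to which 60261 of 60617 identifiers matched; promoter sequences are RefSeq's on GRCh38.p14. Where genes overlap on opposite strands (LEF1-AS1 with LEF1, SKP1 with TCF7, GSK3B-DT with GSK3B, TSPOAP1-AS1 with RNF43, ENSG00000288530 with LGR5), reads of both cannot be told apart without strand, and same-strand overlaps (ENSG00000266076 with AXIN2, ENSG00000258864 with APC, ENSG00000285897 with RNF43) make the split less certain. The p-values measure the spread between these libraries. Named outside the 10 genes are, per list, those past the test between the lines with vehicle with the 2 largest fold changes in each direction and a mean of at least 1 CPM, plus the genes that passed the interaction, of which ROR1 and CSNK1A1 fall outside that rule. The 10 genes and the lists were chosen with earlier results of these data known. Alternatives were DESeq2 1.42.0, library size alone, upper-quartile scaling, no filter, 1 CPM in 3 libraries, a replicate block, a fit of the compared groups alone, a log2 fold change of at least 1, TPM, and leaving out each library. The test was also run on simulated counts of 15692 genes with the same spread for every gene. It recovered 103 of 105 genes changed by a log2 of 1 and 95 of 95 changed by 2, with 18 false calls. Far fewer genes were changed there than were called between the lines, so the simulation does not cover that setting.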

Additional observations from a re-analysis of the deposited data

Results flagged for a closer look

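Of the 86 pathway genes tested, 4 had Act D responses that differed between the 2 lines, by edgeR's interaction test, where 6.53% of all 15692 genes tested did. TCF7L2 fell in HCT 116p53-/- cells and not by the test in uL3Δ libraries, a difference of responses of 1.62 ± 0.23 on the log2 scale (adjusted p = 0.000608). ROR1, a Wnt receptor kinase named after its values were seen, fell in HCT 116p53-/- cells from 9.10 to 2.34 CPM (log2 -1.97, adjusted p = 7.93e-06) and was at 4.85 and 3.89 CPM in uL3Δ libraries (log2 -0.32, adjusted p = 0.407), a difference of 1.65 ± 0.32 (adjusted p = 0.00478). CSNK1A1, the kinase that primes β-catenin and likewise named after its values were seen, was at 287 and 305 CPM in HCT 116p53-/- cells (log2 0.09, adjusted p = 0.482) and fell from 417 to 299 CPM in uL3Δ libraries (log2 -0.48, adjusted p = 0.000456), a difference of -0.57 ± 0.11 (adjusted p = 0.00463). PPP2CA was at 200 and 237 CPM in HCT 116p53-/- cells (log2 0.24, adjusted p = 0.0420) and at 360 and 295 CPM in uL3Δ libraries (log2 -0.29, adjusted p = 0.0249), a difference of -0.53 ± 0.11 (adjusted p = 0.00898). The PPP2CA call within HCT 116p53-/- cells was lost under 8 of 13 alternatives and that within uL3Δ libraries under 5 of 13, the replicate block among both (adjusted p = 0.0791 and 0.0524).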

How the results depend on the processing

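Of the differences between the lines, those of AXIN1, AXIN2, APC, LGR5, RNF43, ZNRF3 and LEF1 kept their direction under every alternative run and passed the test under all with a test, except AXIN1 with vehicle and ZNRF3 with Act D where a log2 fold change of 1 or more was also required. Between the lines 8 to 9 of the 10 genes were called with vehicle and 7 with Act D when each library was left out in turn. Under that requirement 3 of the 10 genes were called with Act D in HCT 116p53-/- cells and 0 in uL3Δ libraries, and of the list genes 9 and 1, and 2 in the interaction, fewer by its construction. In the interaction 1 of the 10 genes was called without the filter (LEF1, adjusted p = 0.0444) and 1 by DESeq2 (CTNNB1), and DESeq2 called 7 list genes. The cause was not tested. Leaving out each library in turn, 3 to 4 of the 10 genes were called with Act D in HCT 116p53-/- cells (3 without replicate 2 of the Act D group) and 0 to 1 in the interaction (1 without replicate 1 of the HCT 116p53-/- Act D group, LEF1, or replicate 3 of the vehicle-treated uL3Δ libraries, CTNNB1). Of the list genes 15 to 22 were called with Act D in HCT 116p53-/- cells, 15 without replicate 1 or without replicate 2 of the Act D group. Shares over all genes were taken in the main fit only. Every count of genes called under an alternative therefore has no background of its own.

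Of the log2 fold changes that changed sign, that of CTNNB1 between the lines with vehicle, on TPM (-0.16), was the one that had passed the test. RPL3 between the lines was at -0.11 and -0.13 with library size alone, and its TPM were lower under the uL3Δ label with either treatment. With Act D, CSNK1A1 in HCT 116p53-/- cells was at -0.014 with library size alone. In uL3Δ libraries with Act D, upper-quartile scaling gave 0.041 for RNF43, 0.058 for LEF1 and 0.025 for TCF7L2, TPM gave 0.010 for LEF1, and TCF7 was at -0.088 with library size alone, -0.036 without the filter and -0.015 with only the 2 groups fitted. With a library left out, GSK3B between the lines with vehicle ranged from -0.045 to 0.056, and the change with Act D in uL3Δ libraries from -0.10 to 0.57 for LGR5, -0.55 to 0.19 for RNF43, -0.16 to 0.12 for LEF1, -0.076 to 0.097 for TCF7 and -0.15 to 0.11 for TCF7L2. The interaction of APC ranged from -0.13 to 0.081. PPP2CA lost its call in HCT 116p53-/- cells with Act D under 8 of 13 alternatives and in uL3Δ libraries under 5 of 13 (highest adjusted p = 0.316 and 0.116), and kept the direction in all.

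Same-numbered libraries, by the numbers in the titles, did not deviate together (correlations of their deviations between -0.10 and 0.10). This cannot show whether their cultures were handled together. In the description field the treated uL3Δ libraries carry other numbers, so the block rests on the titles alone. With the replicate block 8, 7, 5, 3 and 0 of the 10 genes were called in the 5 comparisons, PPP2CA was no longer called with Act D in either line (adjusted p = 0.0791 and 0.0524), and LEF1 in uL3Δ libraries was at 0.0048. Counts limit LGR5 and LEF1 in HCT 116p53-/- cells and AXIN2 and RNF43 in uL3Δ libraries, where the SE of a log2 change with Act D was 0.50 for LEF1, 0.25 for AXIN2 and 0.36 for RNF43.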
